A study of Homo sapiens with 6 samples.

Results

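The genes described here are 8 published direct targets of the let-7 microRNAs: the chromatin proteins HMGA1 and HMGA2, the DNA-binding factor ARID3A, the RNA-binding proteins LIN28B, IGF2BP1, IGF2BP2 and IGF2BP3, and the small GTPase NRAS. They were chosen by name, with earlier results of these data known, and every array probe annotated to one of them was taken. Of the 8 genes, 7 had at least 1 named probe, 10 probes in all, out of 20045 named genes and 47319 probes on the array. NRAS was not analysed here. The samples were MDA-MB-231 cells, a basal-like human breast cancer line, in 3 groups of 2 Illumina expression arrays each: cells stably expressing a small hairpin RNA against DICER1 (DICER1-sh), cells stably expressing one against DROSHA (DROSHA-sh), and control cells. All groups grew in the same medium with serum and penicillin and received no other treatment. The labels do not say whether control cells carried a hairpin, whether the knockdown lines were clones or pools, or whether both arrays of 1 group had a culture of their own. The p-values therefore rest on a spread that may be technical.

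let-7 microRNAs are low in embryonic tissue and accumulate as cells differentiate, and they hold down a set of growth genes that includes the oncofetal genes described here. DROSHA cuts the let-7 hairpin out of its primary transcript in the nucleus, and DICER1 cuts the hairpin to its mature form in the cytoplasm. LIN28B binds let-7 precursors and blocks their maturation, and let-7 in turn represses LIN28B. A microRNA finds its targets mainly through its seed, bases 2 to 8. The comparison of each knockdown with control cells asks which mRNAs respond when microRNA synthesis is inhibited, and these genes are among those that let-7 is known to repress.

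The 9 different mature let-7 family members are given below with the seed, the part that pairs with target mRNAs, in capitals. The sequences are from RefSeq (GRCh38.p14), 5′ to 3′.
let-7a-5p: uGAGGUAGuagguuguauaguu
let-7b-5p: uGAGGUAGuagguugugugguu
let-7c-5p: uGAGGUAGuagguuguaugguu
let-7d-5p: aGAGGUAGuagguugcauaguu
let-7e-5p: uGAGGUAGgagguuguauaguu
let-7f-5p: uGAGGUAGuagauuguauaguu
let-7g-5p: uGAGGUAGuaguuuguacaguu
let-7i-5p: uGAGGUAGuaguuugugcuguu
miR-98-5p: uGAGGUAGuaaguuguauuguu

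All 9 carry the same seed and are 22 bases long, and outside the seed they differ from let-7a-5p at 1 to 4 bases. They come from 12 gene copies in that table. The copies of let-7a-1, let-7f-1 and let-7d lie close together on chromosome 9, at chr9:94175962-94175983, chr9:94176353-94176374 and chr9:94178841-94178862, all on the plus strand. The seed pairs with the letters CUACCUC in an mRNA, and the strongest common form of the site, CUACCUCA, adds an A opposite the first base of the microRNA. Of 2370 mature microRNA names in the table, 2 others share this seed, miR-4458 and miR-4500. Sites in the mRNAs of the genes described here were not examined.

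A probe was called above background where its detection p-value against the negative controls was below 0.05, which held for 42.0% to 44.4% of probes per array. Precision is limited by the 2 arrays per group. Both arrays of each knockdown lay below all other arrays for the brightest probe of the targeted gene. DICER1 stood at 8.41 and 8.66 in DICER1-sh, against 10.55 and 9.36 in control (log2 intensity), and DROSHA at 9.00 and 8.98 in DROSHA-sh, against 11.58 and 10.91 in control. All 6 listed markers of this mesenchymal line (VIM, CD44, CAV1, AXL, MSN and EGFR) were above background on all arrays. The luminal markers ESR1, PGR, TFF1 and CDH1, the leukocyte markers PTPRC and CD3E, the fibroblast markers PDGFRA, COL1A1 and COL3A1 and the melanocytic markers MLANA and TYR were not above background on any array. The luminal markers EPCAM and ERBB3 and the leukocyte markers CD14 and LYZ were on all 6. The luminal markers GATA3 and FOXA1, the fibroblast markers DCN and LUM and the remaining melanocytic marker with a probe were above background on part of the arrays. The summed raw intensity of the 8 luminal markers was 2304 to 2419 in DICER1-sh and 2547 to 2684 in DROSHA-sh, against 2265 to 2348 in control, and its part in the results below was not tested. Replicates of DROSHA-sh differed by a median of 0.15 log2 units over 17790 tested features (genes, and probes with no gene name), those of DICER1-sh by 0.39 and those of control by 0.51.

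Of the 7 measured genes, 5 were expressed in MDA-MB-231 cells on all 6 arrays: HMGA1, HMGA2, ARID3A, IGF2BP2 and IGF2BP3. LIN28B and IGF2BP1 were not above background on any array of any group, with 1 probe each. LIN28B (ILMN_1748697) had raw intensities of 119 and 126 in DICER1-sh and 112 and 115 in DROSHA-sh, against 145 and 120 in control, with detection p-values of 0.395 to 0.913. IGF2BP1 (ILMN_1733807) had raw intensities of 150.0 and 149 in DICER1-sh and 176 and 147 in DROSHA-sh, against 162 and 135 in control. Its lowest detection p-value, 0.0610 on the first DROSHA-sh array, lay just outside the threshold. No fold is given for either gene, because both sides of each comparison were below background. LIN28A, the paralogue of LIN28B, was not above background on any array either. Neither knockdown brought a LIN28 or IGF2BP1 signal above the detection limit of these arrays, which is a limit on the signal and does not show that the transcripts were absent.

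**Figure D1:**
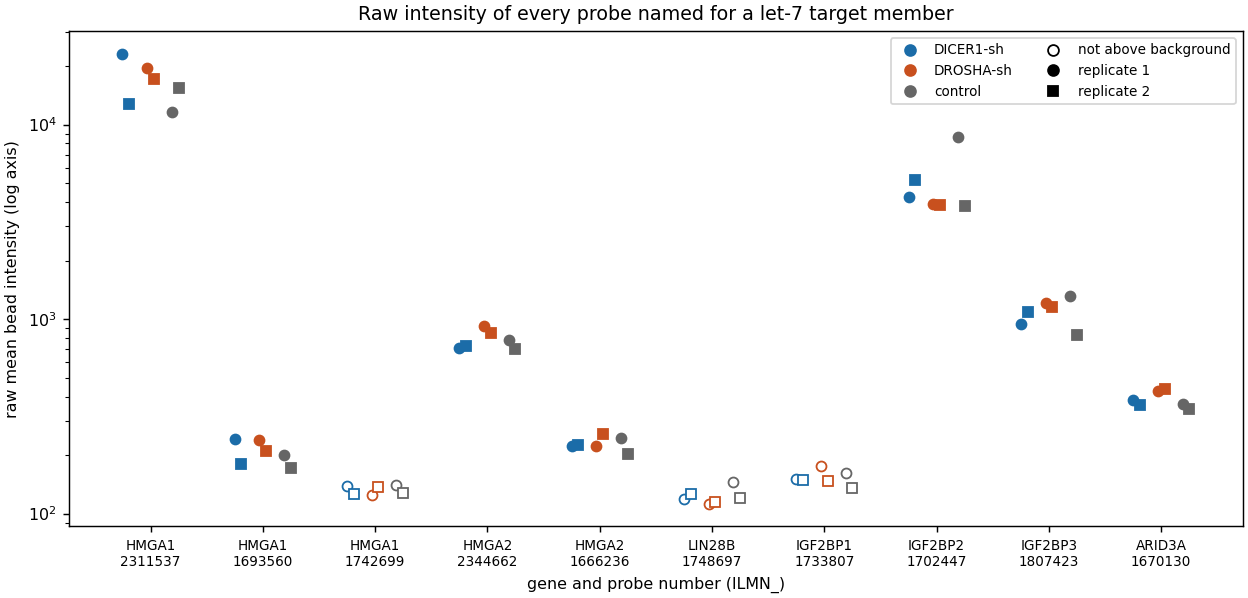
Raw mean bead intensity (log axis) of all 10 probes named for the 7 measured genes, 1 point per array, with DICER1-sh, DROSHA-sh and control side by side and open symbols where the probe was not above background. The LIN28B and IGF2BP1 probes and 1 of 3 HMGA1 probes are open on all 6 arrays, and the other 7 probes are filled on all 6; intensities of different probes are not levels to compare.

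The probes of 1 gene did not all report. HMGA1 had 3 probes, of which ILMN_1742699 was not above background anywhere, with raw intensities between 125 and 141. The other 2 HMGA1 probes and both HMGA2 probes were above background on all 6 arrays. All 5 expressed genes passed the filter of 2 detected arrays with all 6 detected, so none entered the test through a group where it was high. In the values that follow, intensities are normalized and on the log2 scale, a change is the difference of group means, and its standard error (SE) and 95% interval come from limma over all 17790 features.

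HMGA1, an AT-hook protein that bends DNA and opens chromatin for transcription factors, was higher on average in both knockdowns. On its brightest probe the groups overlapped. Its brightest probe (ILMN_2311537) stood at 14.45 and 13.64 in DICER1-sh and at 14.12 and 13.95 in DROSHA-sh, against 13.52 and 13.98 in control. The first DICER1-sh array was the highest of the 6 and the first control array the lowest, while the second DICER1-sh array lay between the control arrays. The change was 0.30 in DICER1-sh (SE 0.35, interval -0.53 to 1.12) and 0.29 in DROSHA-sh (SE 0.35, interval -0.54 to 1.11). Without control 1 it was 0.065 in DICER1-sh and 0.056 in DROSHA-sh, and without control 2 it was 0.53 and 0.52. Its dimmer probe ILMN_1693560, close to the detection limit, stood at 7.27 and 6.06 in DICER1-sh and at 6.78 and 6.47 in DROSHA-sh, against 6.06 and 5.97 in control. Here both DROSHA-sh arrays lay above both control arrays, by a mean of 0.61 (SE 0.42 in a fit over all 22091 kept probes). In DICER1-sh the mean difference of 0.65 came from the first array, since the second was level with the first control array.

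HMGA2, the related AT-hook protein and a textbook let-7 target, was above both control arrays on both DROSHA-sh arrays by its bright probe only. The bright probe (ILMN_2344662) stood at 9.41 and 9.28 in DICER1-sh and at 9.61 and 9.50 in DROSHA-sh, against 9.04 and 9.42 in control. DROSHA-sh lay above every other array, although its lower array exceeded the higher control array by little, and both DICER1-sh arrays lay between the control arrays. The change was 0.33 in DROSHA-sh (SE 0.28, interval -0.32 to 0.97), which is 1.26-fold, and 0.12 in DICER1-sh (SE 0.28, interval -0.53 to 0.76). Without control 1 it was 0.14 in DROSHA-sh and -0.075 in DICER1-sh, and without control 2 it was 0.52 and 0.31. The dimmer HMGA2 probe (ILMN_1666236) gave the other order: 7.00 and 6.79 in DICER1-sh and 6.55 and 7.08 in DROSHA-sh, against 6.64 and 6.61 in control. On it DICER1-sh lay above control on both arrays, with a change of 0.27 (SE 0.30), while the DROSHA-sh arrays lay on either side of control, with a change of 0.19 (SE 0.30). The 2 HMGA2 probes thus shared the sign of both mean changes and differed in which knockdown stood clear of control.

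ARID3A, a transcription factor with an AT-rich interaction domain, was also above both control arrays on both DROSHA-sh arrays. Its probe (ILMN_1670130) stood at 8.32 and 7.94 in DICER1-sh and at 8.20 and 8.30 in DROSHA-sh, against 7.62 and 8.05 in control. The first DICER1-sh array was the highest of the 6, and the second lay between the control arrays. The change was 0.42 in DROSHA-sh (SE 0.29, interval -0.27 to 1.11), or 1.34-fold, and 0.29 in DICER1-sh (SE 0.29, interval -0.40 to 0.98). Without control 1 it was 0.20 in DROSHA-sh and 0.073 in DICER1-sh, and without control 2 it was 0.64 and 0.51.

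IGF2BP2, which binds and stabilizes mRNAs of growth and metabolism, was the 1 expressed gene of the set that stood lower on average in both knockdowns. Its probe (ILMN_1702447) stood at 12.10 and 12.33 in DICER1-sh and at 11.83 and 11.84 in DROSHA-sh, against 12.98 and 12.03 in control. Both DROSHA-sh arrays were below all other arrays, and the first control array was far above the rest. The change was -0.67 in DROSHA-sh (SE 0.36, interval -1.51 to 0.17), 1.59-fold lower, and -0.30 in DICER1-sh (SE 0.36, interval -1.13 to 0.54). Without control 1 the change was -0.20 in DROSHA-sh and 0.18 in DICER1-sh, and without control 2 it was -1.14 and -0.77.

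IGF2BP3, the oncofetal paralogue that is silent in most adult tissues and marks many carcinomas, varied least across the arrays. Its probe (ILMN_1807423) stood at 9.86 and 9.95 in DICER1-sh and at 10.06 and 10.00 in DROSHA-sh, against 9.92 and 9.70 in control. DROSHA-sh was above every other array by a small margin, and the DICER1-sh arrays straddled the higher control array. The change was 0.22 in DROSHA-sh (SE 0.26, interval -0.39 to 0.83) and 0.09 in DICER1-sh (SE 0.26, interval -0.52 to 0.70). Without control 2 it was 0.11 in DROSHA-sh and -0.018 in DICER1-sh, and without control 1 it was 0.33 and 0.20. IGF2BP2 and IGF2BP3, both expressed here, had mean changes of opposite sign in each knockdown, within intervals that overlap.

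**Figure D2:**
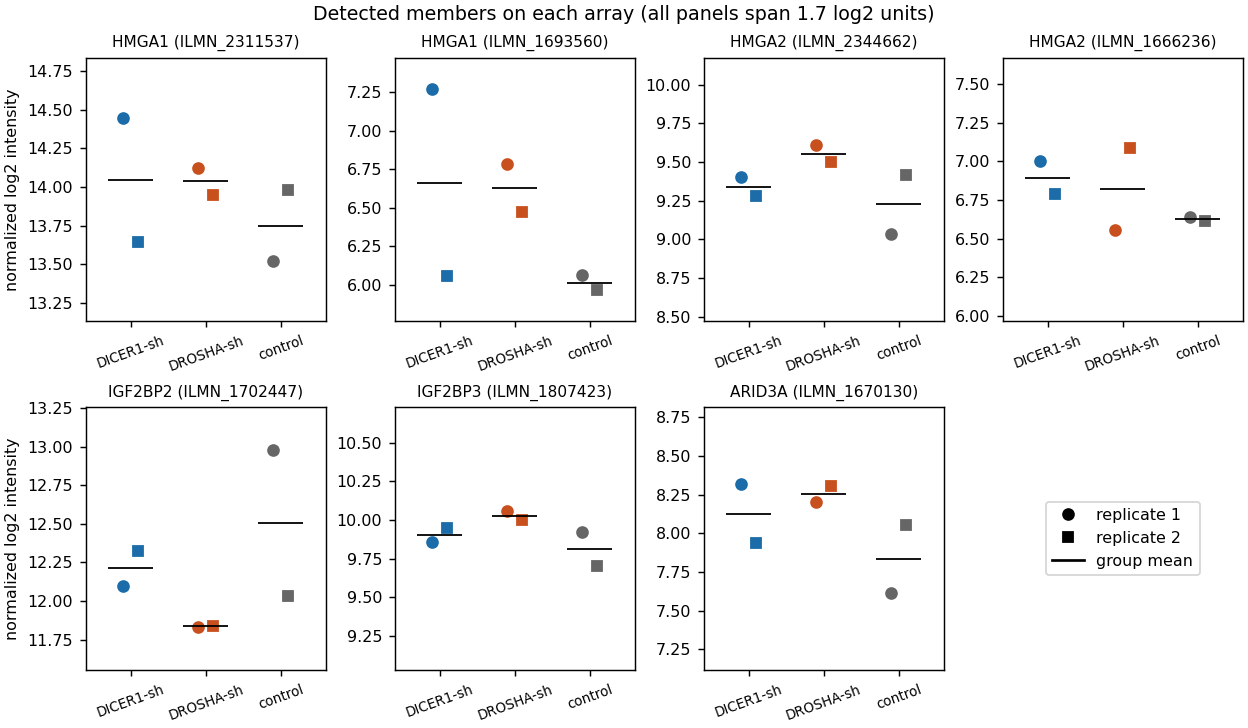
Normalized log2 intensity of the 7 detected probes on each array, in DICER1-sh, DROSHA-sh and control, with circles for replicate 1, squares for replicate 2 and a line at the group mean; every panel spans the same height. Both DROSHA-sh arrays lie above both control arrays for HMGA2 (ILMN_2344662), IGF2BP3, ARID3A and HMGA1 (ILMN_1693560) and below them for IGF2BP2.

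None of the 5 tested genes passed the test in DICER1-sh against control. Their adjusted p-values in limma ran between 0.969 and 0.973, and 0% of all 17790 features passed. An unadjusted p below 0.05 was found for 343 features (1.93%) and for none of these genes. By mean, 4 stood above control and 1 below, with a median change of 0.12 against 0.02 over all features. By the brightest probe of each gene, the DICER1-sh and control arrays separated for 0 of the 5. Of all features, 20.3% separated one way or the other. The dimmer HMGA2 probe, not counted here, separated upward. With 2 arrays a group, an exact permutation test of a single gene cannot go below p = 0.333.

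In DROSHA-sh against control none of the 5 passed either, with adjusted p-values of 0.850 to 0.852 in limma, and again 0% of all features passed. An unadjusted p below 0.05 was found for 527 features (2.96%) and for none of these genes; the smallest was 0.101, for IGF2BP2. By mean, 4 were above control and 1 below, and the median change was 0.29 against 0.03 over all features. By the brightest probe, the arrays separated upward for 3 of 5 (HMGA2, IGF2BP3 and ARID3A), where 19.7% of all features did. They separated downward for 1 of 5 (IGF2BP2), where 17.7% did. Thus 4 of 5 separated one way or the other, where 37.4% of all features did. Of the dimmer probes, not counted here, that of HMGA1 separated upward and that of HMGA2 overlapped control. The sets share the control arrays with the DICER1-sh comparison, so the like signs in both are not independent. Every 95% interval included 0, and for the 4 genes above control the upper bound lay between 0.83 and 1.11, so changes up to those bounds lie within the intervals.

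**Figure D3:**
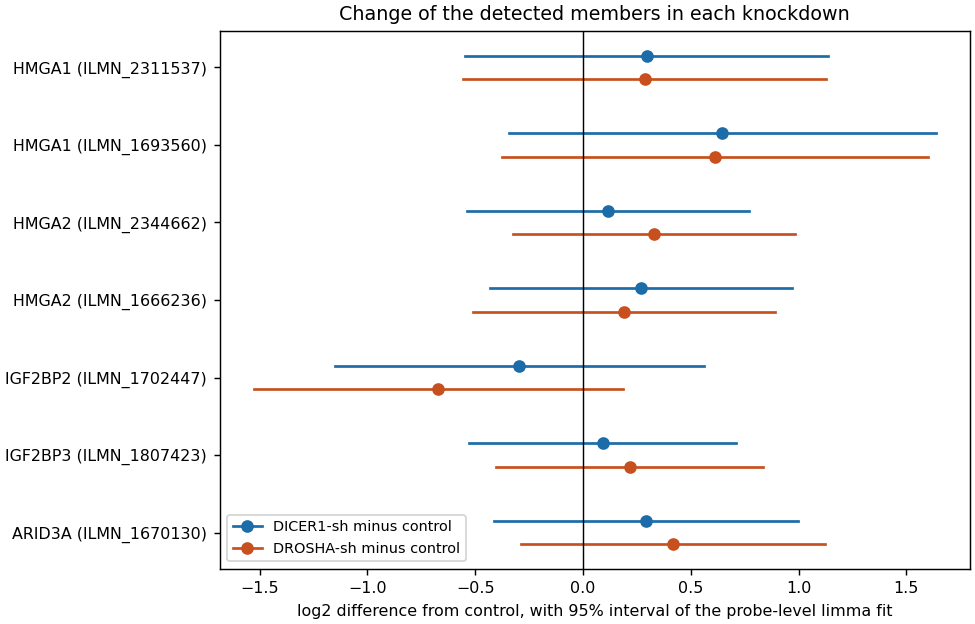
Log2 difference from control of the 7 detected probes in DICER1-sh and DROSHA-sh, with 95% intervals from limma over all kept probes. IGF2BP2 has both points left of 0 and the other 6 probes have both points right of 0, and every interval crosses 0.

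DROSHA-sh minus DICER1-sh, in the fit of all 3 groups, gave 1 call among 17790 features (0.00562%), and it was not a gene of this set. With only these 2 groups in the fit there were 0 calls. HMGA2 differed by 0.21 (SE 0.28, interval -0.43 to 0.86), IGF2BP3 by 0.13 (SE 0.26), ARID3A by 0.13 (SE 0.29), HMGA1 by -0.01 (SE 0.35) and IGF2BP2 by -0.38 (SE 0.36, interval -1.21 to 0.46). The adjusted p was 1.00 for each in limma, and none had an unadjusted p below 0.05, where 2.41% of all features did. By the brightest probe, arrays of the 2 knockdowns separated upward in DROSHA-sh for HMGA2 and IGF2BP3 (16.2% of all features) and downward for IGF2BP2 (17.2%). That is 3 of 5 either way (33.5%). On the dimmer HMGA1 and HMGA2 probes the 2 knockdowns overlapped. A difference between the knockdowns was therefore not shown for any of the 5 genes, and the intervals do not show that they responded alike.

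By the brightest probe of each gene, the control arrays differed from each other by more than either knockdown differed from control. The DROSHA-sh arrays differed by less, and the DICER1-sh arrays by more for some genes and less for others. In DICER1-sh, replicate 1 minus replicate 2 was 0.81 for HMGA1 (ILMN_2311537), 0.13 for HMGA2 (ILMN_2344662), 0.38 for ARID3A, -0.23 for IGF2BP2 and -0.09 for IGF2BP3. In DROSHA-sh it stayed between -0.11 and 0.17 for these 5 probes. In control it had the opposite sign to DICER1-sh for each of them: -0.46 for HMGA1, -0.38 for HMGA2, -0.44 for ARID3A, 0.94 for IGF2BP2 and 0.22 for IGF2BP3. On the dimmer probes the sign was the same in both groups. There it was 1.21 in DICER1-sh and 0.09 in control for HMGA1, and 0.21 and 0.03 for HMGA2. By the brightest probe, the gap between the control arrays exceeded the change in each knockdown for 5 of 5 genes. It did so for 75.9% of all features in DICER1-sh and 74.0% in DROSHA-sh. The dimmer probes went the other way. Their control gap was 0.09 for HMGA1, against changes of 0.65 in DICER1-sh and 0.61 in DROSHA-sh. For HMGA2 it was 0.03, against changes of 0.27 and 0.19. Over all features, the replicate differences of DICER1-sh and control correlated at -0.63 (across genes, which are not independent). First and second arrays thus tended to run in opposite directions in these groups, though not for every probe.

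**Figure D4:**
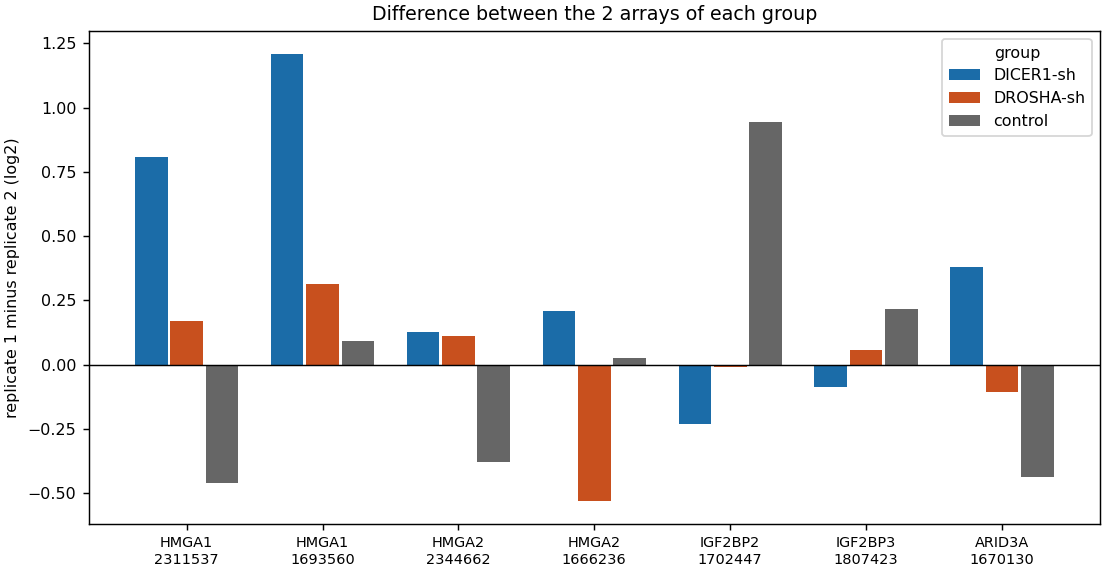
Replicate 1 minus replicate 2 (log2) of the 7 detected probes, as bars from 0, for DICER1-sh, DROSHA-sh and control. DICER1-sh bars reach 1.21 for the dimmer HMGA1 probe, DROSHA-sh bars are short for all but the dimmer HMGA1 and HMGA2 probes, and control bars reach 0.94 for IGF2BP2.

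Across the 6 arrays the brightest probes of HMGA2 and IGF2BP2 ran opposite to each other, with a Pearson r of -0.977. Those of IGF2BP2 and ARID3A did likewise at -0.915. HMGA2 and ARID3A ran together at 0.878, HMGA1 and ARID3A at 0.854 and HMGA1 and HMGA2 at 0.699. IGF2BP3 stood apart, with r between -0.127 and 0.233 to the other 4. These are descriptions over 6 arrays that share the replicate differences just given, with the brightest probe standing for each gene. The dimmer HMGA1 and HMGA2 probes were not part of them, and the dimmer HMGA2 probe ranked the arrays differently, as given above. The named genes with the most similar profile were NEU1 and DNAL1 for HMGA2 (r = 0.997 and 0.994), SLC35A2 and WHR1 for ARID3A (0.999 and 0.996) and PCBP4 and ANKRD52 for HMGA1 (0.996 and 0.995). For IGF2BP2 they were MKRN1 and CCDC66 (0.998 for both), and for IGF2BP3 DCAF12L1 and PEX11G (0.982 and 0.953). A looser bound, an r above 0.9, was passed by many genes: it held for 711 genes against HMGA2 and 1415 against ARID3A, but for 29 against IGF2BP3, out of 12082.

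Proteins that control let-7 maturation were mostly expressed and none passed the test in either knockdown. Of the 8 listed, 7 were tested, with 2 above control in DICER1-sh (median change -0.03) and 3 in DROSHA-sh (median -0.12). TUT4, which adds uridines to let-7 precursors held by LIN28, stood at 8.17 and 8.36 in DICER1-sh and 7.87 and 8.24 in DROSHA-sh, against 8.49 and 8.58 in control. It lay below control on both arrays of each knockdown, with changes of -0.27 in DICER1-sh and -0.48 in DROSHA-sh (SE 0.28). Its paralogue TUT7 differed more within groups than between them, at 5.80 and 8.29 in DICER1-sh and 7.62 and 7.45 in DROSHA-sh, against 8.48 and 6.84 in control. DIS3L2, the nuclease that degrades uridylated let-7 precursors, had mean changes of -0.02 in DICER1-sh and 0.26 in DROSHA-sh (SE 0.30), and TRIM25, a cofactor of TUT4, 0.46 and 0.39 (SE 0.44).

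KHSRP, which promotes let-7 processing, had mean changes of 0.10 in DICER1-sh and 0.16 in DROSHA-sh (SE 0.37), and the RNA-binding protein SYNCRIP had -0.03 and -0.13 (SE 0.25). HNRNPA1, which hinders the processing of let-7a, had 2 probes that disagreed within DICER1-sh. The brighter (ILMN_1663447) stood at 7.59 and 10.17 in DICER1-sh and 9.53 and 9.36 in DROSHA-sh, against 10.11 and 9.37 in control, and the dimmer (ILMN_1815882) at 7.56 and 7.80, 7.77 and 7.75, and 7.69 and 7.91 in the same groups. HNRNPA1 has many near-identical pseudogenes, so its signal is uncertain.

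Among relatives of NRAS, HRAS, RRAS and RRAS2 were above background on all 6 arrays and MRAS on 1. HRAS was so by its probe ILMN_1773751, used below, while its other probe (ILMN_1699798) was not above background on any array. RRAS, a GTPase of adhesion signalling, stood at 10.98 and 10.25 in DICER1-sh and at 10.96 and 11.15 in DROSHA-sh, against 9.45 and 10.85 in control. Both DROSHA-sh arrays were above control, by a mean of 0.90 (SE 0.49), and the first control array was far below all others. Without it the change of RRAS was 0.21 in DROSHA-sh and -0.24 in DICER1-sh. HRAS stood at 11.13 and 10.53 in DICER1-sh and 10.84 and 10.93 in DROSHA-sh, against 9.78 and 10.91 in control, a change of 0.48 and 0.54 (SE 0.42). Without control 1 the change of HRAS was -0.08 in DICER1-sh and -0.03 in DROSHA-sh. RRAS2 (ILMN_2077623) stood at 10.49 and 11.24 in DICER1-sh and 10.70 and 10.75 in DROSHA-sh, against 11.45 and 10.90 in control, a change of -0.31 and -0.45 (SE 0.35), with a second probe at -0.38 and -0.36. Without control 1 the change of RRAS2 was -0.035 in DICER1-sh and -0.18 in DROSHA-sh. None of the 3 passed the test, and their intervals all included 0.

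A further 31 published let-7 targets were listed, of which 29 had a named probe and 18 were tested. In DICER1-sh 0 of the 18 passed, 10 were above control by mean, and the median change was 0.02, against 0.02 over all features. Arrays separated upward for 4 of the 18, where 10.9% of all features did, and downward for 2, where 9.36% did. DICER1, the target of the hairpin, is counted among those 2. CCND2, a D-type cyclin, stood at 10.57 and 10.60 in DICER1-sh, against 10.00 and 9.46 in control (change 0.85, SE 0.29), and TGFBR1, a TGF-beta receptor, at 6.20 and 6.06, against 5.83 and 5.08 in control, where the second control array was not above background. RRM2, a subunit of ribonucleotide reductase, stood at 9.45 and 10.80 in DICER1-sh, against 11.59 and 10.10 in control. DICER1, itself a let-7 target and the target of the hairpin, had the largest difference of the list, -1.42 (SE 0.40). Without control 1 the change was 0.030 for RRM2, -0.82 for DICER1, 1.12 for CCND2 and 1.05 for TGFBR1, and without control 2 it was -1.46, -2.01, 0.58 and 0.30.

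In DROSHA-sh 0 of those 18 passed, 12 were above control by mean, and the median change was 0.19 against 0.03 over all features. The median was -0.16 without control 2 and 0.20 without control 1. IL6, an inflammatory cytokine, stood at 10.34 and 10.77 in DROSHA-sh, against 8.97 and 9.72 in control (change 1.21, SE 0.35). CDC25A, a phosphatase of the cell cycle, stood at 11.23 and 10.90 by its brightest probe, against 9.83 and 10.50 in control (change 0.90, SE 0.34). With the mean of its kept probes the change of CDC25A was smaller, 0.62. By the brightest probe, both DROSHA-sh arrays of IL6 and CDC25A lay above control, as they did for CDC34, a ubiquitin-conjugating enzyme, at 10.45 and 10.42 against 8.87 and 10.14 in control. RRM2 went the other way, at 9.96 and 9.85 in DROSHA-sh, against 11.59 and 10.10 in control (change -0.94, SE 0.58). Without control 1 the change was -0.19 for RRM2, 0.29 for CDC34, 0.56 for CDC25A and 0.83 for IL6. Arrays separated upward for 7 of the 18 and downward for 5, beside the 19.7% and 17.7% of all features given above.

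**Figure D5:**
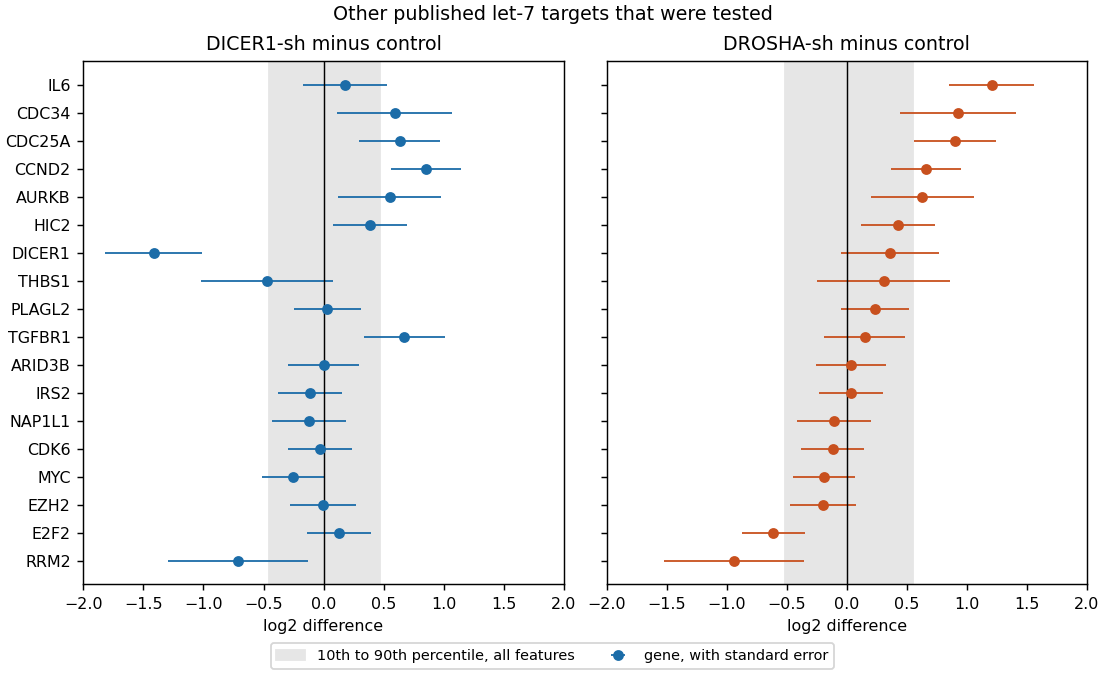
Log2 difference from control, with its standard error, of the 18 other published let-7 targets that were tested, in DICER1-sh (left) and DROSHA-sh (right), ordered by the DROSHA-sh value; the grey band spans the 10th to the 90th percentile of all features. IL6, at 1.21, stands highest in DROSHA-sh and DICER1, at -1.42, lowest in DICER1-sh.

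The array had 10 probes named for let-7 family genes, and which form of the RNA they read is not given in the sources used here. MIRLET7C, MIRLET7A2, MIRLET7E and MIRLET7F2 were not above background on any array, MIRLET7G was on 1, and the other 5 were tested, with 0 past the threshold. MIRLET7A1 stood at 7.88 and 7.41 in DROSHA-sh and was not above background on any DICER1-sh or control array, at least 3.89-fold higher than in control (adjusted p = 0.210 in limma), while MIRLET7D stood at 6.93 and 7.07 in DROSHA-sh, against 5.86 and 5.21 in control, the second of which was not above background (change 1.46, SE 0.34). MIRLET7I stood at 6.31 and 5.87 in DROSHA-sh and was not above background on any DICER1-sh or control array, at least 1.32-fold higher than in control. MIRLET7A1 and MIRLET7I met the filter of 2 detected arrays only through DROSHA-sh, the group where they were high. Their values are therefore a description, and the test of these 2 probes is no support for a rise in DROSHA-sh. MIRLET7F1, of the same chromosome 9 cluster as MIRLET7A1 and MIRLET7D, stood at 6.34 and 5.94 in DROSHA-sh, against 5.79 and 6.55 in control (change -0.03, SE 0.34), and was not above background in DICER1-sh, at least 1.38-fold lower than in control. MIR98 stood at 8.44 and 7.36 in DICER1-sh and at 7.93 and 7.79 in DROSHA-sh, against 6.68 and 8.25 in control (changes 0.44 and 0.40, SE 0.56).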

How the data were processed

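Biotin-labelled cRNA of total RNA was hybridised to 6 Illumina arrays, per the labels. The first deposited table holds mean bead intensity per probe on a linear scale, not scaled between arrays, and a detection p-value, per the file headers. The second deposited table holds background-subtracted intensity values with equal quartiles on every array. It was used as an alternative. The submitters' processing notes name GenomeStudio; the normalization is not given in the sources used here.

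In R 4.3.3, the neqc function of limma 3.58.1 was applied (normexp through the detection p-values, offset of 16, quantile normalization, log2). Probes with a detection p-value below 0.05 on at least 2 of 6 arrays were kept, 22091 of 47319. Platform annotation gave 30112 probes 1 symbol, 8 several and 17199 none, and 30073 symbols were updated through the RefSeq table of GRCh38.p14. The brightest kept probe stood for a gene, and unnamed probes for themselves, which gave 17790 features, 12083 of them named. All 3 groups entered 1 fit (lmFit, eBayes, Benjamini-Hochberg, threshold of 0.05), and a second fit took all kept probes singly. The code was tested on simulated data for DROSHA-sh minus control. There 2 of 50 changes of 1 log2 unit passed and 42 of 50 changes of 2 units, and 14 unchanged features passed. The simulated noise was independent between arrays and features, unlike the replicate differences of the real arrays, so these rates may not hold for them. On the real arrays DROSHA itself, at -2.25 in DROSHA-sh minus control, was not called (adjusted p = 0.479 in limma). The lack of a call therefore says little about changes of 1 log2 unit, or of 2. A fold against a group below background is given as "at least", from the lowest detected value per array.

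Named were all 8 genes with their probes, the listed let-7 regulators, the measured RAS relatives, the 4 largest changes of the target list per knockdown, and the 2 most similar profiles per expressed gene. The genes and lists were chosen with earlier results of these data known. Replicate numbers in the labels were not shown to pair the arrays: the replicate differences correlated at -0.63 between DICER1-sh and control, 0.02 between DICER1-sh and DROSHA-sh and -0.03 between DROSHA-sh and control. All arrays carry 1 chip name, so no chip could be used as a block.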

Additional observations from a re-analysis of the deposited data

How the results depend on the processing

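The count of features past the threshold in DROSHA-sh minus control, 0 at first, was 1 with the deposited normalized table, with cyclic loess and with median scaling, and 10 with a crossed replicate block chosen after seeing the data, which paired control 1 with DICER1-sh 2. In DROSHA-sh minus DICER1-sh the count of 1 became 5 with array weights, 6 with the crossed block, and 0 with the replicate block of the labels, no background correction, an offset of 50, no probe filter, detection on all 6 arrays, detection p below 0.01, only the 2 groups compared, without control 1 and DICER1-sh 2 together (also added after seeing the data), and without any 1 array. In DICER1-sh minus control it stayed at 0 in all 20 alternatives, the replicate block included. No gene of the set passed under any of the 20 by its brightest probe, and the dimmer HMGA1 and HMGA2 probes did not pass where they were tested. Without control 1 and DICER1-sh 2, the HMGA1 probe ILMN_1693560 stood at 1.30 in DICER1-sh minus control, against 0.65 at first. The 5 expressed genes kept their direction in DROSHA-sh minus control throughout, but not their size (without control 1 HMGA1 stood at 0.056 and IGF2BP2 at -0.20). Many alternatives could not change it. Array weights, both replicate blocks, the probe filters, the fit of only the 2 groups and leaving out a DICER1-sh array returned the main value (0.42 for ARID3A). A kept direction under those is no separate support. The direction for the 4 with separate groups follows from that separation when 1 array is left out. In DICER1-sh minus control ARID3A alone kept it. Of 57 changes of named genes and probes, 29 changed sign under at least 1 alternative, and the cause was not tested. Without control 1 and DICER1-sh 2, DICER1-sh minus control was -0.011 for HMGA2, 0.060 for IGF2BP2, 0.10 for DIS3L2, 0.49 for DROSHA, -0.0067 for IL6 and -0.37 for KHSRP, DROSHA-sh minus control 0.073 for HNRNPA1, -0.026 for HRAS, -0.35 for KHSRP, -0.15 for TRIM25 and 0.70 for TUT7, and DROSHA-sh minus DICER1-sh -0.064 for ARID3A. With median scaling the HMGA1 probe ILMN_1693560 stood at 0.037 in the last comparison. Leaving out each array in turn, DICER1-sh minus control ran between -0.11 and 0.70 for HMGA1, -0.075 and 0.31 for HMGA2, -0.77 and 0.18 for IGF2BP2, -0.018 and 0.20 for IGF2BP3, -0.043 and 1.23 for CDC34, -0.27 and 0.24 for DIS3L2, -0.47 and 0.20 for DROSHA, -2.15 and 0.43 for HNRNPA1, -0.082 and 1.05 for HRAS, -0.20 and 0.56 for IL6, -0.41 and 0.62 for KHSRP, -0.24 and 1.16 for RRAS, -0.68 and 0.064 for RRAS2, -1.46 and 0.030 for RRM2, -0.079 and 0.027 for SYNCRIP, -0.076 and 1.00 for TRIM25 and -1.86 and 0.63 for TUT7. DROSHA-sh minus control ran between -0.075 and 0.46 for the HMGA2 probe ILMN_1666236, -0.23 and 0.95 for DICER1, -0.67 and 0.073 for HNRNPA1, -0.026 and 1.11 for HRAS, -0.35 and 0.68 for KHSRP, -0.23 and 0.53 for TGFBR1, -0.15 and 0.93 for TRIM25 and -0.94 and 0.70 for TUT7. DROSHA-sh minus DICER1-sh ran between -0.064 and 0.32 for ARID3A, -0.41 and 0.39 for HMGA1, -0.64 and 0.57 for ILMN_1693560 and -0.34 and 0.19 for ILMN_1666236. Where an array was left out, its partner was assumed to vary like the other groups. LIN28B, IGF2BP1 and 1 HMGA1 probe are limited by signal over background.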
